A study of Homo sapiens with 6 samples.

Results

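The genes described here are 10 genes of the actin contractile apparatus: the smooth muscle actins ACTA2 and ACTG2, the myosin light chain MYL9, the tropomyosins TPM1 and TPM2, the filament-binding proteins CALD1, CNN1 and TAGLN, the adhesion protein VCL, and SRF, a transcription factor of the set. They were chosen by name, with earlier results of these data known, and their symbols were mapped to Ensembl identifiers with GENCODE 29. All 10 stood in both deposited tables, which shared 56982 identifiers. Levels are FPKM, fragments per kilobase of exon scaled to a total per library. For the tests the filter was an FPKM that reached 1 in 2 or more libraries. Of the 10, 9 passed, all but ACTG2, among 15001 genes.

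In a contractile cell, myosin heads pull on actin filaments, and phosphorylation of the myosin regulatory light chain switches that pull on. Tropomyosin, caldesmon and calponin lie along the filament and regulate its access to myosin, and vinculin ties filaments to cell adhesions. SRF binds DNA elements called CArG boxes and, with cofactors of the myocardin family that sense free actin, drives many of these genes. In non-muscle cells such as fibroblasts and osteoblasts, several of the same genes build stress fibres.

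The data were poly(A) RNA levels in U2OS, a human osteosarcoma line, grown in medium with foetal bovine serum to 65 to 75% confluency. One side of the comparison was G3C2, an edited U2OS line in which CRISPR/Cas9 had targeted ZFP36L1 and whose deficiency was established by sequencing and western blotting, per the labels. It had 3 libraries, of which the first carries no letter and is called replicate 1 here, and the others are lettered b and c. The other side was unedited wild-type (WT) U2OS, with 3 libraries named in the same way. ZFP36L1 is an RNA-binding protein that speeds the decay of mRNAs with AU-rich stretches near their 3′ ends. With a single edited line, the edit and other differences of that line cannot be told apart, and nothing in the labels says that the libraries came from separate cultures, so the spread behind each p-value is that of the libraries and may be technical. Replicate 1 stood in the first table and replicates b and c in the second, on separate scales, so each difference was taken within a table.

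ZFP36L1 itself had 238, 105 and 82.4 FPKM in G3C2 replicates 1, b and c, against 165, 57.1 and 128 in WT, so its transcript was not lower in every pair. Of the osteoblast markers, RUNX2, COL1A1 and SPARC reached at least 1 FPKM in a library and the other 5 did not, with IBSP at 0 throughout. The 8 osteoblast markers summed to 1854, 542 and 390 FPKM in G3C2 replicates 1, b and c, against 947, 346 and 463 in WT. Of 6 further smooth muscle markers, only MYOCD and LMOD1 reached 1 FPKM in any library, with sums of 1.12 to 3.76 in G3C2 and 1.38 to 2.07 in WT. Leukocyte markers summed to at most 0.739 FPKM in G3C2 and 0.711 in WT, with CD3E at 0. The 4 endothelial markers summed to 0.233 to 2.03 in G3C2 and 0.505 to 1.96 in WT, and the 4 epithelial ones to 3.65 to 10.3 in G3C2 and 3.41 to 20.0 in WT. The second table held between 22610000 and 28980000 recovered reads per library, and the depth of the first is unknown.

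CArG boxes were looked for in promoter windows from RefSeq (GRCh38.p14, 250 bases before to 50 after each annotated start) of 8 members, all but MYL9 and TAGLN. A box was CC, then 6 letters that are each A or T, then GG, a form that reads the same way on both strands. It was found in 2 of the 8 members, SRF and ACTG2, with 2 boxes each, and in 1.60% of all 27305 gene symbols in the table. The 4 boxes are shown in capitals, 5′ to 3′ on the gene's strand, since SRF is both a member and the factor that binds such boxes:
SRF, chr6:43171229-43171258, plus strand: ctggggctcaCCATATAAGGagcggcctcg
SRF, chr6:43171249-43171278, plus strand: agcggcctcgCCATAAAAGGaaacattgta
ACTG2, chr2:73892888-73892917, plus strand: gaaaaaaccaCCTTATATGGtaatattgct
ACTG2, chr2:73892925-73892954, plus strand: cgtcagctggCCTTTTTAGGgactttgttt

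In SRF the boxes began 30 and 10 bases before the start, and in ACTG2 110 and 73 bases before it. A looser form, with 1 of the 6 middle letters G or C, was found in ACTA2 and CALD1 and in 8.46% of all gene symbols. The ACTA2 matches, 121 and 71 bases before the start, are shown beside the ACTG2 boxes because both genes encode smooth muscle actins:
ACTA2, chr10:88952875-88952904, minus strand: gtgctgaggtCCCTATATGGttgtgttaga
ACTA2, chr10:88952825-88952854, minus strand: tgtctttgctCCTTGTTTGGgaagcaagtg

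The windows of CNN1, TPM1, TPM2 and VCL held neither form, which says only that these letters are not in these windows.

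**Figure D1:**
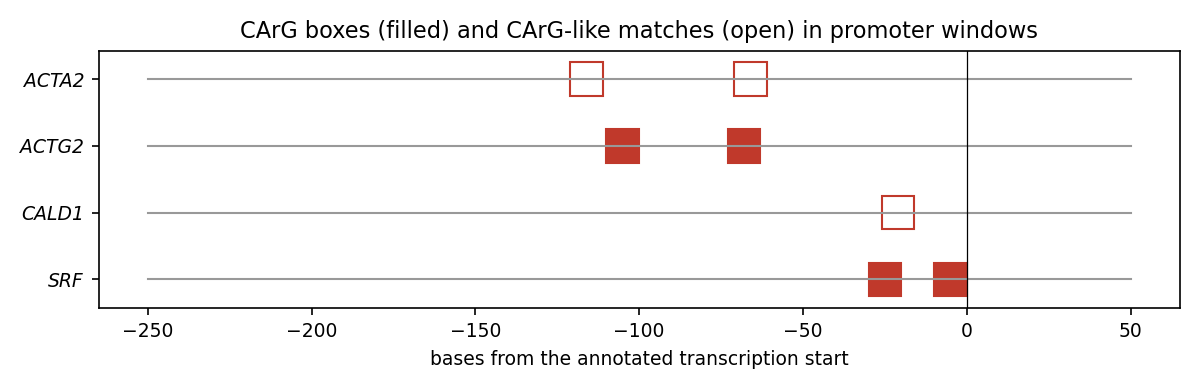
Position of CArG boxes in the promoter windows of the 4 members that held a match. The x axis gives bases from the annotated start, the grey line spans the window, filled squares are strict boxes and open squares matches with 1 middle letter G or C. The strict boxes of SRF begin 30 and 10 bases before the start, and those of ACTG2 110 and 73.

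The AU-rich heptamer TATTTAT, a core of the elements that ZFP36L1 family proteins bind, was searched on the transcript strand in each gene's 3′ untranslated region, taking the longest one annotated. It occurred in 3 of 10 members, CALD1, TPM1 and SRF, beside 30.9% of 19436 protein-coding genes. The TPM1 and SRF sites are shown with the heptamer in capitals (GRCh38, plus strand), as DNA:
TPM1, chr15:63046695-63046721: atatatctgaTATTTATagcatatgag
SRF, chr6:43179225-43179251: tggcaccactTATTTATtgttgccttt
SRF, chr6:43180567-43180593: gtaacctcagTATTTATgtaatttgta

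The TPM1 site lies in an isoform that ends early in the gene, which spans 63042632 to 63071915.

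The comparison of G3C2 with WT asks which contractile transcripts differ between the edited and the unedited cells. No member passed an adjusted p of 0.05 (limma on log2(FPKM + 1) with terms for genotype and table, adjusted over 15001 genes), beside 0.0200% of all genes called higher, 0.0267% lower and 0.0467%, or 7 genes, in either direction. At an unadjusted p under 0.05, 2 of 9 tested members were higher in G3C2, MYL9 and TPM1, and 0 were lower, beside 6.19% of all genes higher and 7.43% lower. CALD1, MYL9 and TPM1 were higher in G3C2 in 3 of 3 same-label pairs, which 17.8% of all genes were, and no member was lower in all 3, which 18.6% were. The same 3 members were also without overlap between the genotypes in the second table, as were 14.9% of all genes on the higher side and 14.8% on the lower side. In bulk RNA, a change in the number of cells with a transcript and in its amount per cell cannot be told apart.

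Libraries of replicate c stood apart in level. The read total behind the FPKM was 22560000 in G3C2 and 25410000 in WT, against 25840000 and 22610000 recovered reads. In replicate b it was 26520000 and 29670000, against 26100000 and 28980000. Relative to recovered reads, this scaling placed G3C2 higher and WT lower in pair c. In pair c, genes with a mean FPKM of at least 25 had a median difference of 0.52 on the log2(FPKM + 1) scale, against 0.07 for all tested genes. Across all 15001 tested genes the pair c difference had a Spearman correlation of 0.39 with mean FPKM. Across the 14988 with an exon length it was -0.15 with that length. Genes are not independent replicates. Genes of the mitochondrial genome took 6.73% of summed FPKM in G3C2 replicate c and 14.0% in WT replicate c, over identifiers in both tables, and 7.47% and 8.83% in the G3C2 and WT libraries of replicate b. The part of these shifts in the members' values was not tested.

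The smooth muscle actins were the least abundant members in both tables. ACTA2 (ENSG00000107796, chromosome 10, 88935074 to 88991339, minus strand), the alpha actin of vascular smooth muscle and myofibroblasts, had 1.14, 0.570 and 0.879 FPKM in G3C2 replicates 1, b and c, against 0.892, 0.906 and 1.20 in WT. G3C2 lay above WT in the first table and below it in both pairs of the second, and the log2 fold change was -0.11 (SE 0.17, 3 libraries a genotype, limma adjusted p = 0.807). Its recovered reads numbered 45 and 59 in G3C2 replicates b and c, against 80 and 91 in WT. On the opposite strand ACTA2 shares 17.3% of its exonic bases with ACTA2-AS1 and 12.8% with FAS, a death receptor gene with 12.8, 3.40 and 4.52 FPKM in G3C2 and 18.1, 4.82 and 7.21 in WT.

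ACTG2 (ENSG00000163017, chromosome 2, 73892314 to 73919865, plus strand), the gamma actin of visceral smooth muscle, had 0.434, 0.148 and 0.640 FPKM in G3C2, against 0.0943, 0.0442 and 0 in WT. All G3C2 values lay above their WT counterparts, at a level too low for the filter. The second table held 15 and 55 reads in G3C2 and 5 and 0 in WT. In replicate b the ratio of G3C2 to WT was 3.36 (95% exact interval 1.16 to 11.8, counting error only). In replicate c it was 20.6 with WT set to 3 reads (0.0310 FPKM), about the limit that a count of 0 allows. That value leaves out counting error in the 55 G3C2 reads and uses the deposited scaling, so it is not a lower bound. Actin genes are nearly identical in coding sequence, so reads of abundant isoforms could be assigned to ACTG2 or ACTA2, and how the authors placed such reads is not given in the sources used here. Among cytoplasmic actins, ACTB and ACTG1 differed between G3C2 and WT by 0.18 and 0.39 in pair 1, by 0.10 and 0.19 in pair b and by 1.36 and 1.97 in pair c, on the log2(FPKM + 1) scale. Whether reads of these genes entered the ACTG2 values was not tested.

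MYL9 and TPM1 had the largest log2 fold changes of the tested members, and in the second table their G3C2 and WT libraries did not overlap. MYL9 (ENSG00000101335, chromosome 20, 36541484 to 36551447, plus strand), the regulatory light chain that is phosphorylated to start contraction, had 56.0, 67.7 and 117 FPKM in G3C2, against 42.4, 43.3 and 35.6 in WT. Each G3C2 library lay above every WT library of its own table. The log2 fold change was 0.90 (SE 0.28, limma adjusted p = 0.253, unadjusted p = 0.0170), and the pair differences were 0.39, 0.63 and 1.69.

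TPM1 (ENSG00000140416, chromosome 15, 63042632 to 63071915, plus strand), a tropomyosin that winds along actin filaments and has many spliced isoforms, had 321, 43.7 and 61.4 FPKM in G3C2, against 211, 22.8 and 28.3 in WT. The libraries of the genotypes did not overlap in the second table, where G3C2 averaged 52.5 ± 12.6 and WT 25.5 ± 3.86 FPKM (SD, n = 2 each). The log2 fold change was 0.87 (SE 0.21, limma adjusted p = 0.188, unadjusted p = 0.00578), with pair differences of 0.60, 0.91 and 1.09. Reads recovered from the second table numbered 14903 and 17845 in G3C2 and 8714 and 9246 in WT. TPM1 shares 16.1% of its exonic bases with the antisense gene TPM1-AS, which had 0.526, 1.90 and 2.30 FPKM in G3C2 and 0.448, 0.794 and 1.07 in WT, and without strand the reads of both cannot be told apart. FPKM per gene also merges the 34 annotated transcripts of TPM1, so isoforms were not resolved.

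In the fit that leaves out replicate c, which has 1 residual degree of freedom, 3 members passed limma's adjusted threshold: TPM1 (log2 fold change 0.76, SE 0.12, adjusted p = 0.0164) and MYL9 (0.51, SE 0.11, adjusted p = 0.0423) were higher, and CNN1 (-0.71, SE 0.16, adjusted p = 0.0497) was lower. In that fit 2.99% of all genes were called higher, 3.05% lower and 6.03% in either direction. Without replicate b no member was called, beside 0.400% of all genes higher, 1.01% lower and 1.41% in either direction. With replicate 1 left out the TPM1 and MYL9 log2 fold changes were 1.0002 and 1.16, with limma adjusted p of 0.636 and 0.654.

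TPM2 (ENSG00000198467, chromosome 9, 35681992 to 35690121, minus strand), the beta tropomyosin, had the highest mean FPKM of the members in both tables. It had 306, 156 and 267 FPKM in G3C2, against 342, 141 and 114 in WT. The genotypes lay close together in replicates 1 and b and apart in replicate c, and the log2 fold change was 0.40 (SE 0.30, limma adjusted p = 0.593). Its sister gene TPM1 thus differed in pair b by 0.91 where TPM2 differed by 0.15, on the log2(FPKM + 1) scale. The difference between these genes was not tested.

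**Figure D2:**
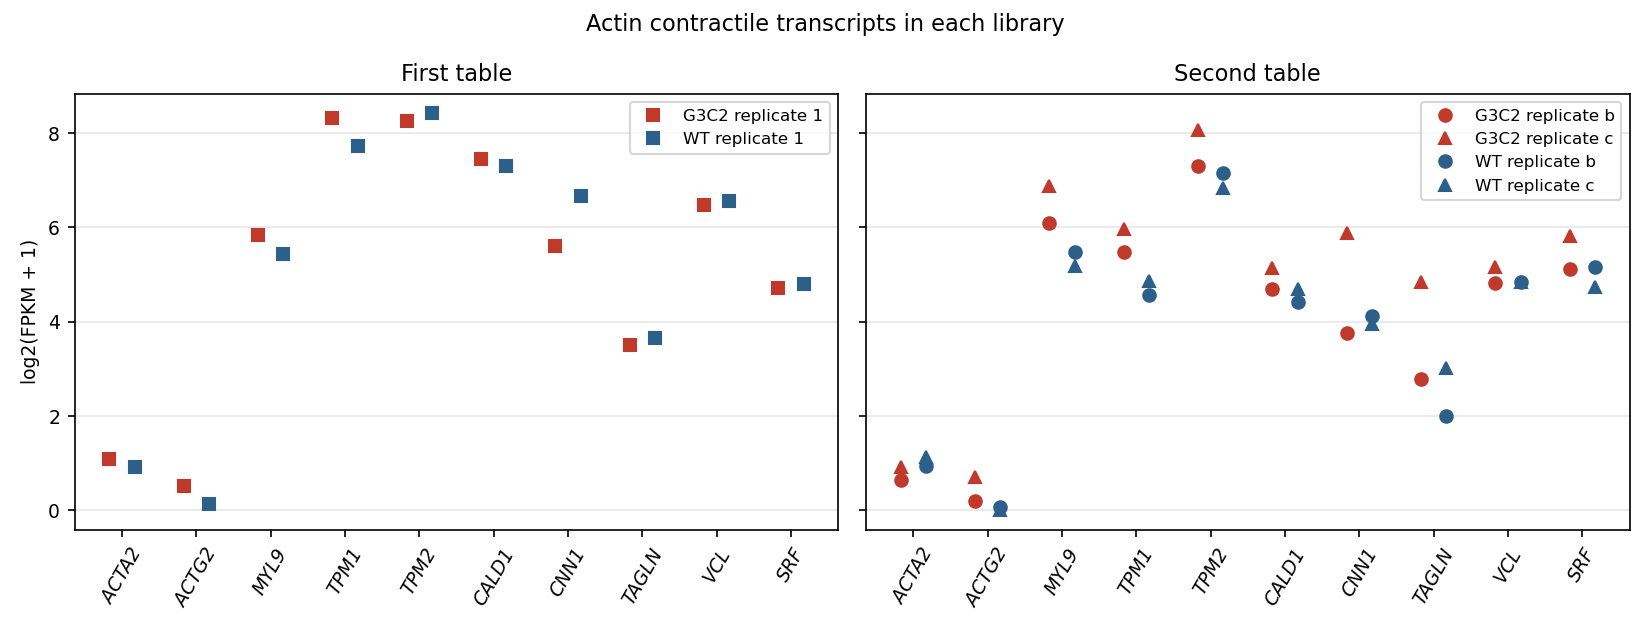
Level of each member in each library as log2(FPKM + 1), in the first table (replicate 1) and the second (replicates b and c), which have separate scales. Red symbols are G3C2 and blue symbols WT, with squares, circles and triangles for replicates 1, b and c. ACTA2 and ACTG2 lie near 0. MYL9 and TPM1 have every red symbol above the blue ones in both tables, as do CALD1 and ACTG2 by small margins.

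Of the filament-binding proteins, CALD1 was higher in G3C2 in every pair, while CNN1 and TAGLN differed in direction between pairs. CALD1 (ENSG00000122786, chromosome 7, 134744252 to 134970728, plus strand), caldesmon, which restrains actin-activated myosin, had 173, 25.005 and 34.3 FPKM in G3C2, against 158, 20.3 and 24.99 in WT. The pair differences were 0.13, 0.28 and 0.44, with G3C2 replicate b and WT replicate c nearly level, and the log2 fold change was 0.29 (SE 0.19, limma adjusted p = 0.549).

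CNN1 (ENSG00000130176, chromosome 19, 11538717 to 11550323, plus strand), calponin 1, a filament-binding inhibitor of myosin and a marker of differentiated smooth muscle, had 47.7, 12.5 and 58.3 FPKM in G3C2, against 100, 16.4 and 14.5 in WT. It was lower in G3C2 in replicates 1 and b, by -1.05 and -0.37, and higher by 1.94 in replicate c. Its log2 fold change of 0.17 (SE 0.62, limma adjusted p = 0.921) averages these opposite differences.

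TAGLN (ENSG00000149591, chromosome 11, 117199321 to 117204782, plus strand), transgelin or SM22, an early marker of smooth muscle and myofibroblasts, had 10.4, 5.91 and 27.7 FPKM in G3C2, against 11.6, 3.03 and 7.05 in WT. G3C2 was slightly lower in replicate 1 and higher in replicates b and c, and G3C2 replicate b lay below WT replicate c. The log2 fold change of 0.82 (SE 0.61, limma adjusted p = 0.591) rested on single libraries: it was 0.098 without G3C2 replicate c, 0.40 without WT replicate b, 0.32 without replicate c and 1.30 without replicate 1. TAGLN shares 11.4% of its exonic bases with PCSK7 on the opposite strand, which had 5.96, 1.08 and 1.51 FPKM in G3C2 and 10.5, 1.31 and 1.21 in WT.

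VCL (ENSG00000035403, chromosome 10, 73995193 to 74121363, plus strand), vinculin, which links integrin adhesions to actin, had 88.6, 27.1 and 35.0 FPKM in G3C2, against 93.9, 27.6 and 27.5 in WT. In WT its replicates b and c were nearly level, with 8180 and 6989 reads in WT replicates b and c, and its log2 fold change was 0.08 (SE 0.17, limma adjusted p = 0.862). It shares 11.1% of its exonic bases with AP3M1 on the opposite strand.

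SRF (ENSG00000112658, chromosome 6, 43171299 to 43181507, plus strand), the transcription factor, had 25.2, 33.8 and 55.8 FPKM in G3C2, against 26.8, 34.6 and 25.6 in WT. Replicates 1 and b differed by -0.09 and -0.03 and replicate c by 1.10, and the log2 fold change was 0.32 (SE 0.26, limma adjusted p = 0.615).

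**Figure D3:**
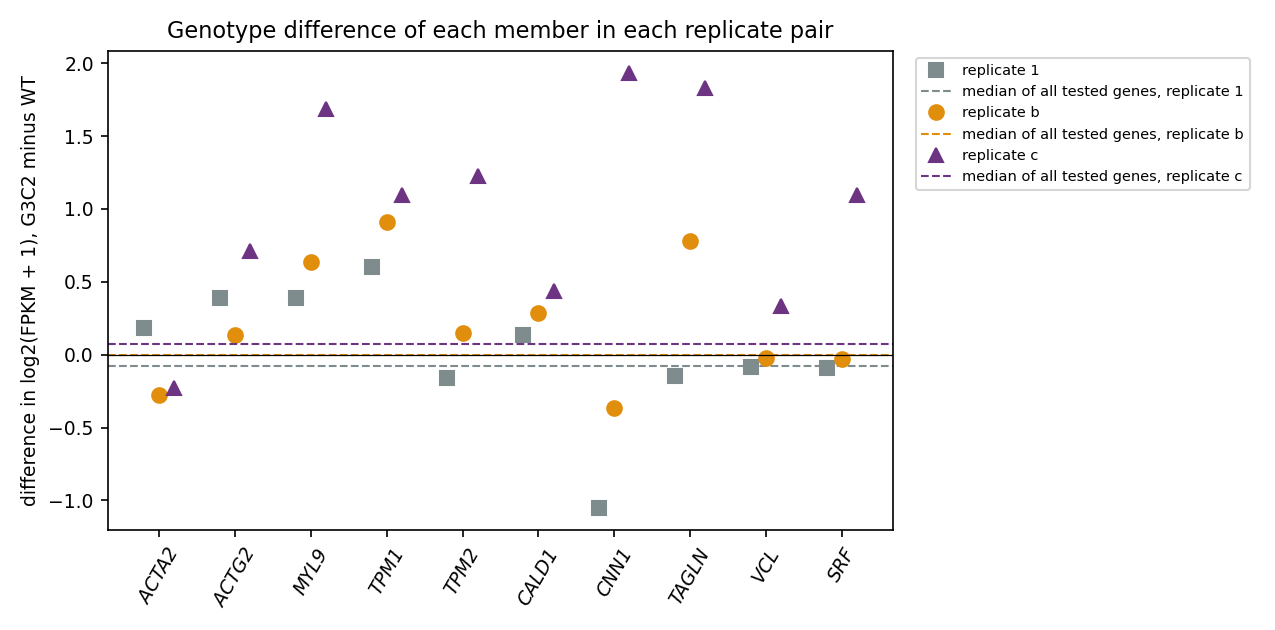
Difference of each member between G3C2 and WT in log2(FPKM + 1), for replicates 1 (squares), b (circles) and c (triangles), with dashed lines for the median of all tested genes in each pair. TPM1, MYL9, CALD1 and the untested ACTG2 lie above the lines in all 3 pairs. CNN1 has its lowest difference, -1.05, in replicate 1 and its highest, 1.94, in replicate c.

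Most tested members were higher in G3C2 replicate c than in WT replicate c, with ACTA2 lower (-0.23) and VCL and CALD1 differing by 0.34 and 0.44 on the log2(FPKM + 1) scale. On the deposited scaling, 6 of 9 tested members were at least 2-fold higher in G3C2 in pair c, beside 8.74% of all tested genes. That share was not matched for level, with which the pair c difference rose. The members with such a difference, a log2 value of at least 1, were CNN1, TAGLN, MYL9, TPM2, SRF and TPM1. Those of TPM2, SRF and TPM1 were 1.23, 1.10 and 1.09. The median over the 9 members was -0.08, 0.15 and 1.10 in pairs 1, b and c, against -0.08, -0.01 and 0.07 for all tested genes. For tested genes with a mean FPKM of at least 25 it was -0.02, -0.04 and 0.52. The median log2 fold change over all pairs was 0.32 for the members, 0.01 for all genes and 0.16 for genes with a mean FPKM of at least 25, a level that 7 of the 9 members reached.

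The pairing of b with b and c with c rests on the labels, so the libraries of each genotype were also compared with each other. G3C2 replicate c minus G3C2 replicate b had a median of 0.71 over the 9 members, with 2.14 for CNN1 and 2.05 for TAGLN, whose FPKM was 4.67 and 4.68 times that of replicate b. All 9 were higher in G3C2 replicate c than in G3C2 replicate b. WT replicate c minus WT replicate b had a median of -0.0031, with 0.999 for TAGLN and -0.42 for SRF as the ends of the range. Genes with a mean FPKM of at least 25 had medians of 0.31 in G3C2 and -0.25 in WT for the same difference. Without replicate c the members' median log2 fold change was -0.01, and without G3C2 replicate c it was 0.10.

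**Figure D4:**
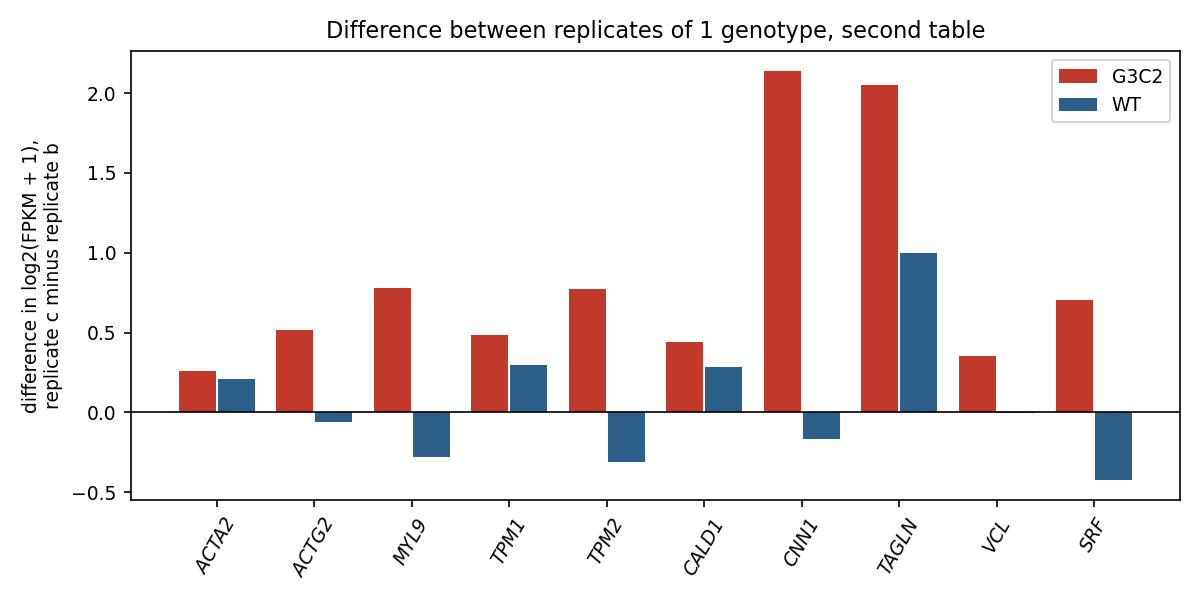
Difference in log2(FPKM + 1) between replicates c and b of the same genotype, G3C2 in red and WT in blue, for each member. The G3C2 bars of CNN1 and TAGLN exceed 2, and the WT bars are smaller than the G3C2 bars for every member.

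Within a table, levels per length can be set side by side. In the second table that length is the merged exon length of all annotated transcripts. It is 12876 bases for TPM1 and 9843 for CALD1, against 2821 for MYL9 and 4202 for SRF. G3C2 replicate b had 14903 reads of TPM1, 13436 of TPM2 and 5066 of MYL9. The order below thus depends on this length, and by how much was not tested. In the second table the order by mean FPKM was TPM2 (169), MYL9 (65.9), TPM1 (39.0), SRF (37.4), VCL (29.3), CALD1 (26.2), CNN1 (25.4), TAGLN (10.9), ACTA2 (0.890) and ACTG2 (0.208). Neighbours in this order overlapped in their ranges over 4 libraries, except TAGLN (lowest 3.03) and ACTA2 (highest 1.20). The first table ordered them differently, with TPM2, TPM1, CALD1 and VCL at the top, and the ratio of the tables' means ran from 0.694 for SRF to 6.81 for TPM1. The tables thus differ per gene, and levels were not compared across them.

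Other genes of the pathway came from 4 lists of 55 genes in all, of which 48 were tested. None passed limma's adjusted threshold, 6 were higher and 1 lower at an unadjusted p under 0.05, beside 6.19% and 7.43% of all genes. In 3 of 3 pairs 19 were higher and 10 lower, beside 17.8% and 18.6% of all genes, the shares against which the counts of each list below stand. The higher counts include MYOCD, which passed the filter only through G3C2 libraries.

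Of the 14 other actins and close paralogs of the members, 11 were tested, and 7 were higher and 1 lower in 3 of 3 pairs, beside 17.8% and 18.6% of all genes. The median log2 fold change was 0.52 and the median pair c difference 1.18, against 0.16 and 0.52 for tested genes with a mean FPKM of at least 25. The 3 with an unadjusted p under 0.05 were all myosin light chains. MYL12A, a regulatory light chain of non-muscle myosin like MYL9, had 150, 68.2 and 75.1 FPKM in G3C2, against 103, 43.5 and 44.2 in WT (log2 fold change 0.64, SE 0.15, limma adjusted p = 0.187). MYL12B, its neighbour on chromosome 18 and near-identical copy, between which reads may be split, had a log2 fold change of 0.80 (SE 0.25, limma adjusted p = 0.265). MYL6, the essential light chain, had 315, 84.9 and 143 FPKM in G3C2, against 160, 63.9 and 47.9 in WT (0.98, SE 0.25, limma adjusted p = 0.206). With MYL9, 4 light chains were thus higher in G3C2 in each of the 3 pairs. The most abundant genes of the list, ACTB, ACTG1 and TAGLN2, had log2 fold changes of 0.55 (SE 0.38), 0.85 (SE 0.41) and 0.22 (SE 0.30), with pair c differences of 1.36, 1.97 and 0.85.

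Of 14 myosin heavy chains and filament cross-linkers, 11 were tested, with 5 higher and 2 lower in 3 of 3 pairs and a median of 0.05. MYH14, a non-muscle myosin heavy chain, had 4.03, 3.46 and 3.21 FPKM in G3C2, against 5.89, 5.91 and 6.36 in WT (-0.63, SE 0.14, limma adjusted p = 0.167). MYH9, the main non-muscle myosin heavy chain, had 0.41 (SE 0.25), FLNA 0.36 (SE 0.23) and ACTN1 0.24 (SE 0.23). ACTN4 was at 279 and 255 FPKM in the G3C2 and WT libraries of the first table and at most 0.0186 in the second, so its value there may be a failed estimate. It is the median gene and one of the 5 higher genes of the list, and without it 4 of 10 were higher and 2 lower, with a median of 0.10.

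The 8 SRF cofactors had a median of -0.04, with 3 higher and 2 lower in 3 of 3 pairs. MYOCD, myocardin, the muscle-restricted cofactor of SRF, had 1.97, 2.85 and 0.470 FPKM in G3C2, against 0.464, 0.384 and 0.0355 in WT. It was higher in G3C2 in each pair, with a log2 fold change of 1.0003 (SE 0.36, limma adjusted p = 0.316, unadjusted p = 0.0315). MYOCD passed the filter only through G3C2 replicates 1 and b, the group where it is high. Its p-value and pair count are therefore no support for a difference. MRTFA, the broadly expressed cofactor, had 16.6, 11.2 and 11.8 FPKM in G3C2, against 18.1, 11.3 and 11.9 in WT. The most abundant of the list, ELK1, ELK3 and FHL2, had 0.24 (SE 0.15), -0.26 (SE 0.15) and -0.20 (SE 0.34).

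Of 19 focal adhesion partners of vinculin, 18 were tested, with 4 higher and 5 lower in 3 of 3 pairs and a median of 0.07. FERMT2, kindlin-2, an integrin activator, had 112, 21.0 and 29.2 FPKM in G3C2, against 95.2, 16.99 and 14.3 in WT (0.50, SE 0.20, limma adjusted p = 0.341). TLN1, talin, VASP and ENAH, the most abundant, had 0.08 (SE 0.16), 0.10 (SE 0.24) and -0.11 (SE 0.15).

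Without replicate c, 6 of the 48 passed limma's adjusted threshold, 5 higher and 1 lower, beside 2.99% and 3.05% of all genes. Among them MYL6 (0.69), MYL12A (0.59), SYNPO (0.55) and MYOCD (1.25) were higher and FLNC (-0.76) was lower, with limma adjusted p between 0.0236 and 0.0466. FLNC and SYNPO had the opposite sign in pair c (0.54 and -0.96). MYOCD passed the filter only through G3C2 libraries, so its call is no support for a difference.

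**Figure D5:**
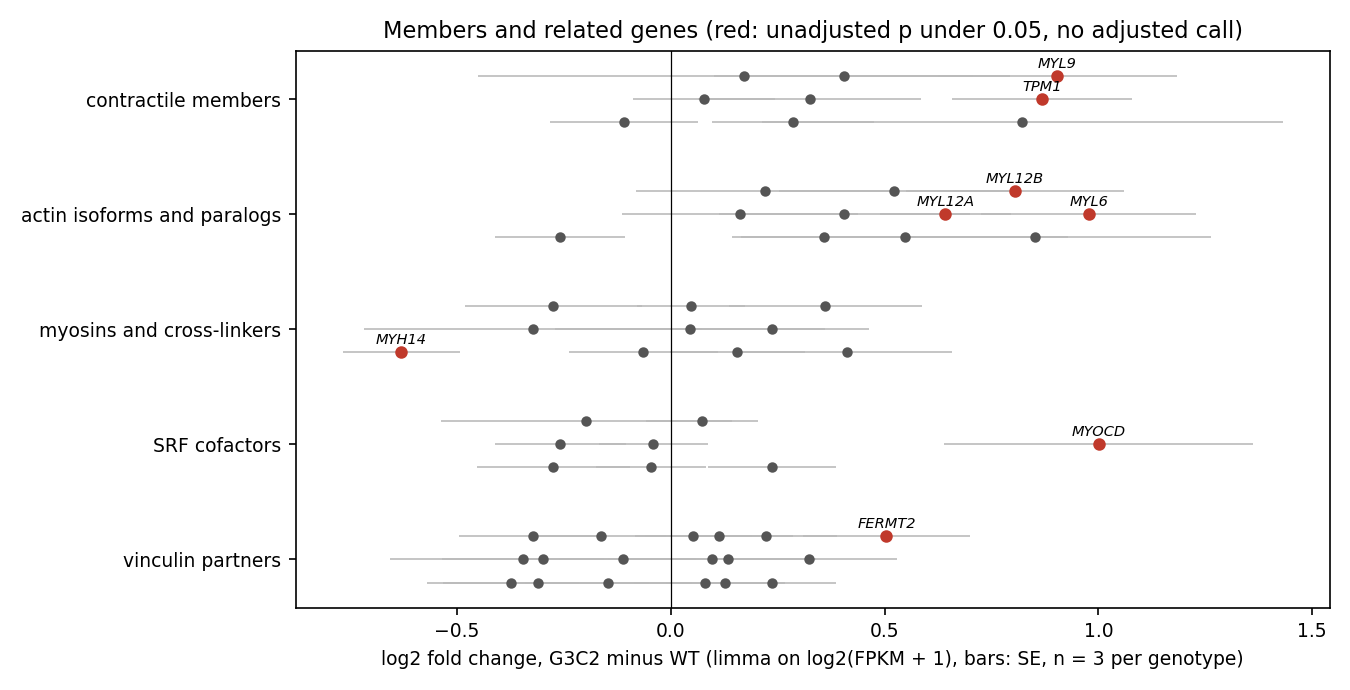
log2 fold change (G3C2 minus WT) with its SE for the 9 tested members and the tested genes of 4 related lists, with each list spread over 3 lines so that points stay apart. Red points have an unadjusted p under 0.05, and none passed the adjusted threshold. The light chains MYL9, MYL6, MYL12A and MYL12B lie between 0.64 and 0.98.

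The profile of the members' mean over the 6 libraries, centred within each table, was followed most closely by IDH3B, GOSR1, DNAJC25, CEP85 and CHUK among 12143 protein-coding genes outside the set. Pearson r was 0.998 to 0.999 over 6 libraries that share a scale only within a table, and 709 genes had an r of at least 0.9. IDH3B, the nearest, had 71.2, 33.1 and 42.9 FPKM in G3C2, against 73.0, 30.7 and 31.6 in WT, a smaller range than the members'. Of the members, ACTA2 stood apart from the mean profile (r = -0.13), and the other 8 had an r of 0.82 to 0.96 with a mean that each of them enters.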

How the data were processed

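Gene values were deposited by the authors as FPKM, per the file headers and labels, in 2 tables of 60448 and 59108 identifiers. CASAVA, HISAT2 and GRCh38.p12 are named, without versions, in the submitters' processing notes, and counting and strand settings are not given in the sources used here. Symbols, exon lengths and untranslated regions came from GENCODE 29. In the second table, FPKM times exon length gave whole reads within 0.02 reads for 97.3% to 97.4% of values above 0, and for all 10 members. The first table's depth was not recovered.

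The test was a limma fit (version 3.58.1, under R 4.3.3) of log2(FPKM + 1), a scale that understates changes of low genes. Genotype and table were terms, variances followed a trend on the mean, and p-values were adjusted by Benjamini and Hochberg with a threshold of 0.05. The fit was tested on simulated data with independent noise for each gene and library. No shift of a whole library, as in replicate c, was simulated. Same-label libraries deviated together from their group means (r = 0.93, 0.80 and 0.60 for 1, b and c, where b and c are letters in the labels and 1 stands for the unlettered pair), a pattern that separate tables also produce, and within the second table r was -0.17. A replicate block was therefore an alternative.

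Members and lists were chosen with earlier results of these data known. Named genes were all members, of each list those with an adjusted call or the 3 most abundant, and 5 genes of similar profile. Genes named for an unadjusted p or a call without replicate c, overlapping genes, and TPM1-AS, ACTN4 and MRTFA were chosen after their values were seen. Python 3.11.15, matplotlib 3.10.9, scipy 1.17.1 and pandas 2.3.3 made the tables and figures. Some results are not reported here, among them those of a gene list and of a gene that counts of its list include and the plot of the lists leaves out.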

Additional observations from a re-analysis of the deposited data

How the results depend on the processing

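The 20 alternatives gave 179 log2 fold changes for the tested members, of which 170 kept their direction and 2 passed the adjusted threshold in it. Many were fixed by the design. Changing the filter, blocks, table term or variance trend left the log2 fold changes as they were. The second table alone and the fits without replicate 1, or without either library of it, share 1 set of estimates. The 170 are thus not separate checks of direction. No member was called in the 11 alternatives that are not leave-outs. Across the 9 leave-outs, 0 to 3 members were called, 1 to 3 had an unadjusted p under 0.05, the members' median was -0.0065 to 0.69 and 0 to 905 of all genes were called. The lowest and highest log2 fold changes over these leave-outs were -0.71 and 0.78 for CNN1, -0.0065 and 0.69 for TPM2, -0.053 and 0.16 for VCL, -0.061 and 0.53 for SRF and -0.25 and 0.0054 for ACTA2. They were 0.098 and 1.30 for TAGLN, against 0.69 and 1.0002 for TPM1. CNN1 was -0.052 without WT replicate c, -0.61 without G3C2 replicate c and -0.71 without replicate c, VCL was -0.048 without G3C2 replicate c, and the lowest values of TPM2, VCL and SRF came without replicate c. ACTA2 was 0.0054 without G3C2 replicate b, and VCL was -0.067 after quantile normalization.

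Dropping the table term left 0 members with an unadjusted p under 0.05. Genes called over all tested numbered 7 as reported. Among the alternatives that are not leave-outs, the number was 0 in 4 limma fits. These were the fit with no filter (2990 at an unadjusted p under 0.05) and the fit without the table term (223). The others were the second table only (1110) and quantile normalization (1980). Leave-outs also gave 0, as without replicate 1. The number was 3 with a filter on a mean FPKM of 5, 1 with the replicate block and 11 with equal medians. The cause was not tested. With the replicate block TPM1 and MYL9 had limma adjusted p of 0.264 and 0.352, and the block changed no call of a member. The crossed replicate block, chosen after seeing the data, called 8 genes and 0 members. In limma-voom on recovered reads, TPM1 was 1.03 and MYL9 1.19, with limma adjusted p of 0.487 and 0.464. Depth limits ACTG2, with 0 to 55 reads a library.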
